A study of Mus musculus with 8 samples.

Results

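Replication-dependent histone genes encode the core histones H2A, H2B, H3 and H4 and the linker histones H1 that package newly copied DNA during S phase. They lie in clusters, mostly have no introns, and their main mRNAs end in a stem-loop bound by the protein Slbp in place of a poly(A) tail. Some members also have longer, polyadenylated transcripts, which are known from cells that have left the cell cycle.

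The genes were every entry whose symbol started with Hist1h, Hist2h, Hist3h or Hist4h, pseudogene symbols ending in -ps left out. This gave 69 of the 39009 entries in each of the 8 deposited gene tables: 6 H1, 20 H2A, 18 H2B, 12 H3 and 13 H4 genes. By cluster, 56 belonged to Hist1 on chromosome 13, 10 to Hist2 on chromosome 3, 2 to Hist3 on chromosome 11 and 1 to Hist4 on chromosome 6. Of the 69, 57 had at least 1 FPKM, the fragment count scaled to transcript length and library depth, in at least 1 library and entered the tests. Another 11 stayed below 1 FPKM in all 8 libraries, and Hist2h3c1 carried the low-data flag of the authors' software in all 8. The GENCODE M21 annotation (GRCm38, the same build as mm10) calls 2 of the 69, Hist1h2aj and Hist1h2al, pseudogenes.

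The study measured RNA from mouse pluripotent stem cells induced with small molecule compounds (CiPSC), from their source cells and from embryonic stem cells. NSC were neural stem cells cultured to P2 from E13.5 embryos (1 library), and 3 lines derived from them were NSC_CiPSC lines 1, 2 and 3. IEC were primary cells of the small intestinal epithelium of E13.5 embryos (1 library), with the derived IEC_CiPSC lines 10 and 13. ESC was the R1 line (1 library). The 7 libraries other than ESC carried the strain C57BL/6J-Tg(GOFGFP)11Imeg/RbrcxICR with the number stepping from 11 to 17 from label to label, and ESC carried 129X1 x 129S1, so the ESC group and its strain cannot be told apart. Each CiPSC library was 1 line, and the labels leave out whether separate animals or treatments gave them. P-values therefore measure the spread between lines, and a lone library was assumed to vary as the lines do.

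Depth, estimated from the steps in the low FPKM values, was 8.82M to 10.1M fragments. The histone genes held 0.0455% to 0.0645% of the summed FPKM in the 7 libraries other than ESC and 0.214% in ESC, while mitochondrial genes held 1.94% to 11.6%. The labels name total RNA and a library kit, but whether poly(A) RNA was selected is not given in the sources used here, so the levels cannot be read as those of all histone mRNA. All 8 pluripotent cell markers were at 10 FPKM or more in each CiPSC and ESC library, and all 8 neural stem cell markers were in NSC. The library labelled IEC went against its label: 1 of 8 intestinal epithelium markers reached 10 FPKM (none was at 0), whereas 8 of 8 mesenchyme, 6 of 6 smooth muscle, 5 of 6 leukocyte, 4 of 4 hepatic and 4 of 4 pancreatic markers did. Summed mesenchyme markers were 6792 FPKM in IEC and 5.85 to 229 FPKM in the other 7 libraries. The part of these other cell types in the results on IEC was not tested, and in bulk RNA fewer cells of a type and less RNA per cell cannot be told apart.

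The copies of a histone gene are close in sequence, which decides how far reads can be given to 1 copy. In the M21 coding sequences, 11 of 18 H2A genes, 10 of 12 H3, 5 of 18 H2B, 4 of 13 H4 and 0 of 6 H1 had another copy of the class within 5 base differences. Hist1h2ao and Hist1h2ap had identical coding sequences, as had Hist2h2aa1 and Hist2h2aa2, Hist1h2bq and Hist1h2br, and Hist1h4m and Hist1h4n. The values of these genes are therefore the authors' software's split of shared reads and are uncertain for each copy. Hist1h2ap had the highest mean level of all members over the 5 groups, though Hist1h1c was above it in IEC, and the first 300 of its 390 coding bases are shown (chr13:21833176-21833475, minus strand, GRCm38). Capitals mark 19 of the 24 positions at which 12 Hist1 H2A copies differed over the 384 bases compared; the other 5 lie beyond the stretch.
Hist1h2ap: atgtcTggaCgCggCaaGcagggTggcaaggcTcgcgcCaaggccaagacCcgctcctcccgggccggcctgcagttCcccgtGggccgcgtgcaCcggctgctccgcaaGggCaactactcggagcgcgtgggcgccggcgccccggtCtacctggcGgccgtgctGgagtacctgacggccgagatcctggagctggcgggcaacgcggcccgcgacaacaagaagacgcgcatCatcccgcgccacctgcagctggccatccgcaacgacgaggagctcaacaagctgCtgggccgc

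Of these positions, coding position 150 (counted from 1 at the A of the ATG) divided the copies most by their level in ESC relative to the CiPSC lines. It was picked by that ratio, so it is a description and supports nothing. The substitution C150G, from Hist1h2ap to the other copy, stands in the middle of the 49 bases shown for 3 genes, with position 150 in capitals. The first form was shared by Hist1h2ac, Hist1h2ag, Hist1h2ao and Hist1h2ap, and the second by 8 copies, Hist1h2ab, Hist1h2ad, Hist1h2ae, Hist1h2af, Hist1h2ah, Hist1h2ai, Hist1h2aj and Hist1h2an. The third belonged to Hist1h2ak alone.
Hist1h2ap, chr13:21833302-21833350, minus strand: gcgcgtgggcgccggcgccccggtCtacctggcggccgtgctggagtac
Hist1h2af, chr13:23534036-23534084, plus strand: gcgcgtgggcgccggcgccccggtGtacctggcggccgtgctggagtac
Hist1h2ak, chr13:21753654-21753702, minus strand: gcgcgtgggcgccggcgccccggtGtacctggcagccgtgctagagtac

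The end of the transcript was described by the stem-loop that replaces the poly(A) tail. The 16-base pattern GGNNCTTNTNAGNGCC was found on the sense strand of 44 of 69 members (63.8%), against 38 of 55272 other M21 genes (0.0688%). On the antisense strand it was found in 0 members and 34 other genes. Only annotated transcripts were searched, and some end with the coding sequence. In Hist1h2ai, Hist1h2ak and Hist1h2an, the longest transcript has 393 bases and the coding sequence 390 without the stop codon. Bases past such an end were not searched, so a member without a match may still have the stem-loop. Among 7 distinct sequences, the commonest was held by 26 members of the H1, H2A, H2B and H3 classes. The second was held by 7 members, all H4, and the third by 6 members of H1, H2B and H3. These 3 forms are shown whole, 5′ to 3′, since they carry the match and differ by class.
Form in 26 members: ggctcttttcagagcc
Form in 7 H4 members: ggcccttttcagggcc
Form in 6 members: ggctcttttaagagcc

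Promoters of 62 members were found in the RefSeq promoter table (GRCm38.p6, 250 bases before to 50 after the start). TATAAA, the TATA box, occurred on either strand in 35 (56.5%) of them and in 13.54% of 32788 other promoters of this length. CCAAT, the box bound by NF-Y, occurred in 53 (85.5%, other promoters 37.3%). It was in every matched H1, H2A, H2B and H3 promoter and in 3 of 12 H4 promoters. The octamer ATTTGCAT, which the Oct factors bind, occurred in 14 (22.6%, other promoters 1.70%). These were 7 of 18 H2A and 7 of 16 H2B promoters and none of the other classes. The 150 bases before the start are shown for 2 H2A genes that were both far higher in ESC than in the CiPSC lines, with any of the 3 motifs on either strand in capitals. Hist1h2ab held all 3 motifs there and Hist1h2ad held CCAAT alone. Hist1h2ad also had a TATAAA match, which lay outside the bases shown but inside the longer window used for the counts. A match is a description of the letters and not a bound site.
Hist1h2ab, chr13:23750938-23751087, plus strand: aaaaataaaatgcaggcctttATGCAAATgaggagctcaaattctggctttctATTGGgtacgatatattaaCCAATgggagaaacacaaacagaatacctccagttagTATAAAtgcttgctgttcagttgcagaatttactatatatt
Hist1h2ad, chr13:23574231-23574380, plus strand: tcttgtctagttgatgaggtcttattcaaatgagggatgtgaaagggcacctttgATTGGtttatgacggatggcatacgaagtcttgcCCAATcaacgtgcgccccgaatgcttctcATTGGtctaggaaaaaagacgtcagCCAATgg

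Summed over the 68 genes without the low-data flag, histone FPKM was 336 in NSC, 363, 450 and 405 in NSC_CiPSC lines 1 to 3, 301 in IEC, 481 and 466 in IEC_CiPSC lines 10 and 13, and 1484 in ESC. The ESC library stood above all others, and almost all of its excess was in H2A. Without H2A the sum was 140 FPKM in ESC, inside the range of the other libraries (77.8 to 152).

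H2A, which pairs with H2B in the nucleosome, was 255 FPKM in NSC and 278, 320 and 295 in the NSC_CiPSC lines. It was 149 in IEC, 402 and 389 in the IEC_CiPSC lines and 1344 in ESC. ESC was 4.52 times the mean of the NSC_CiPSC lines (298 ± 21.1, SD, n = 3) and 3.40 times that of the IEC_CiPSC lines (396 ± 9.77, SD, n = 2). H2A made up 90.6% of the histone FPKM in ESC, 71.1% to 83.7% in the 5 CiPSC libraries, 75.8% in NSC and 49.5% in IEC.

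H3 sums were low in both source cells and higher in every line: 3.40 FPKM in NSC, 11.4, 27.9 and 19.8 in the NSC_CiPSC lines, 4.54 in IEC, 13.49 and 12.0 in the IEC_CiPSC lines and 20.98 in ESC. The mean of the lines was 5.79 times NSC in the neural route and 2.81 times IEC in the intestinal route. H4 sums were 14.3 FPKM in NSC, 29.1, 45.3 and 40.2 in the NSC_CiPSC lines, 18.5 in IEC, 24.3 and 29.4 in the IEC_CiPSC lines and 48.4 in ESC. Both source libraries lay below every line in H3 and in H4. Among the neural lines, line 1 had the lowest sum of all 4 core classes.

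H2B and H1 did not follow H2A. H2B sums were 46.5 FPKM in NSC, 31.6, 51.2 and 43.7 in the NSC_CiPSC lines, 70.8 in IEC, 36.8 and 31.4 in the IEC_CiPSC lines and 60.9 in ESC. H1 sums were 17.3 FPKM in NSC, 13.4, 5.84 and 6.98 in the NSC_CiPSC lines, 58.1 in IEC, 3.53 and 5.01 in the IEC_CiPSC lines and 9.70 in ESC. H1 thus made up 19.3% of histone FPKM in IEC, and that library was 13.6 times the mean of its lines. Without Hist1h1c, the log2 ratio of the H1 sums turned from -3.77 to 1.51 in the intestinal and from -0.99 to 4.83 in the neural route. These ratios divide by sums near 0 and say little about size. Apart from Hist1h1c, the only H1 gene above 0 in NSC was Hist1h1d, at 0.0840 FPKM. In IEC only Hist1h1e (0.436 FPKM) and Hist1h1d (0.358 FPKM) were.

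**Figure D1:**
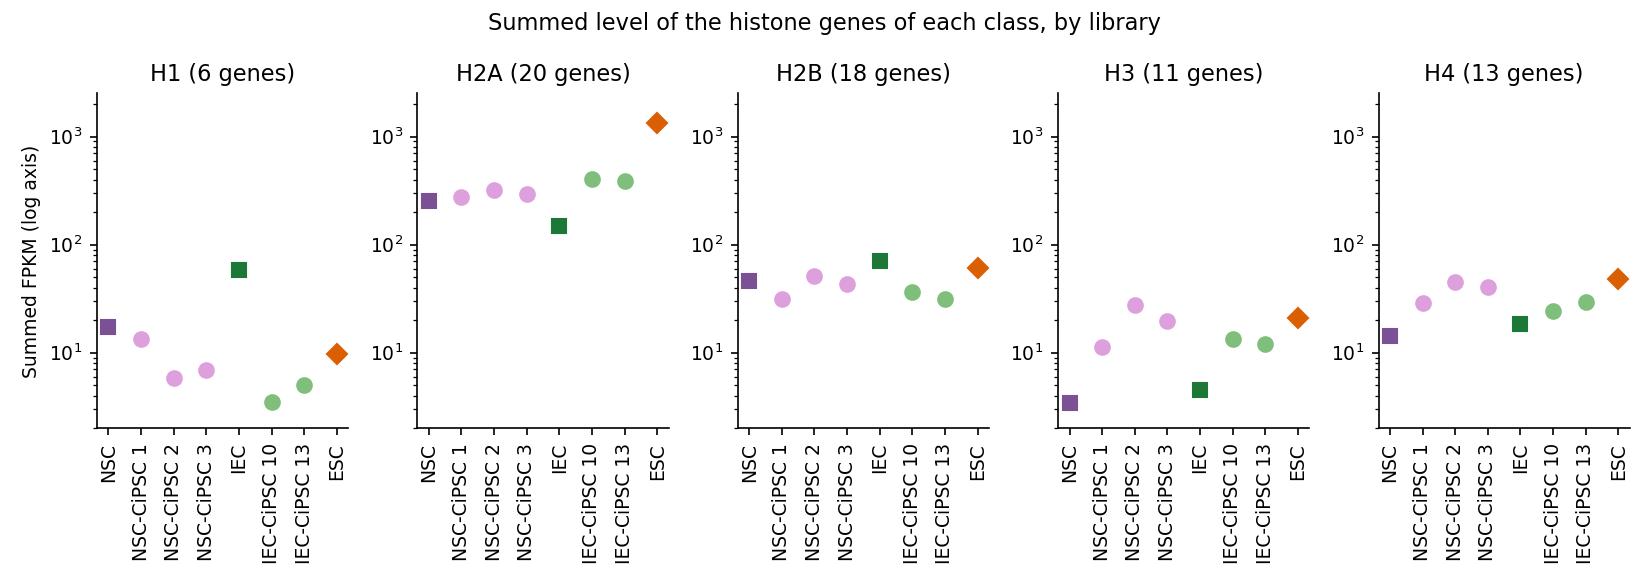
Summed FPKM of the member genes of each histone class (log axis) in each of the 8 libraries, 1 point a library and 1 panel a class; the H3 panel sums 11 genes. The ESC point stands at 1344 FPKM in the H2A panel, above all other libraries, and within or near their range in the other panels.

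Only some members carried these sums. Members at 1 FPKM or more numbered 23 in NSC, 36, 42 and 42 in the NSC_CiPSC lines, 28 in IEC, 41 and 43 in the IEC_CiPSC lines and 50 in ESC. Hist1h2ap was 120 FPKM in NSC, 124, 126 and 122 in the NSC_CiPSC lines, 50.9 in IEC, 208 and 211 in the IEC_CiPSC lines and 433 in ESC. Its ESC value rested on about 1344 fragments (deposited 95% interval 409 to 456). Hist1h2ao, with the same coding sequence, was 62.0 FPKM in NSC, 61.7, 74.0 and 66.2 in the NSC_CiPSC lines, 24.6 in IEC, 108 and 98.6 in the IEC_CiPSC lines and 185 in ESC. The ratio of the first to the second lay between 1.70 and 2.33 in every library.

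**Figure D2:**
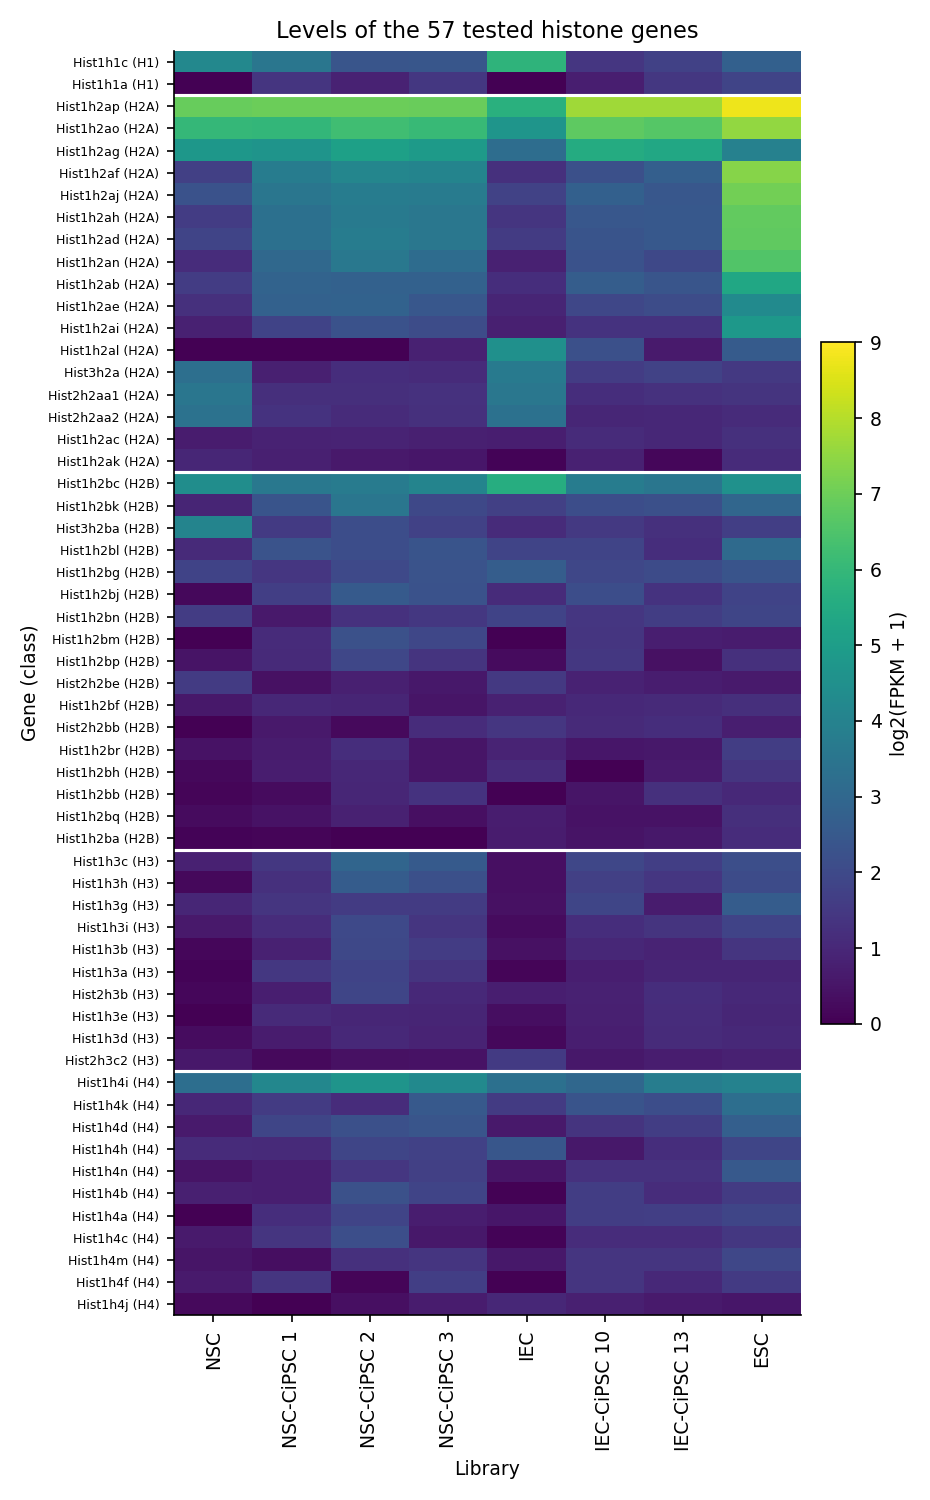
Level of the 57 tested genes as log2(FPKM + 1), genes in rows by class and the 8 libraries in columns. A block of H2A genes is bright in ESC, 8 of 10 tested H3 genes are darker in NSC and IEC than in every CiPSC line, and most H2B and H4 genes stay low in every library.

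Against ESC, the tests asked which histone genes of the lines differed from the reference pluripotent cells. A gene was called where its adjusted p was under 0.05 (limma on log2(FPKM + 1), Benjamini-Hochberg over 17011 genes) and its fold at least 2. In the NSC_CiPSC lines, 11 of the 57 tested members were called lower than in ESC, where 1.86% of all tested genes were. They were 10 H2A genes and Hist1h2ba. Hist1h2ba, Hist1h2ak and Hist1h2bq reached 1 FPKM in ESC only, so the filter favoured a lower value in the lines. Without these 3, 10 of 54 tested members were called lower. In either direction 2.81% of all genes were called. No member was called higher, where 0.946% of all genes were. At an unadjusted p under 0.05, 20 of the 57 tested members differed, beside 3758 of all 17011 tested genes. The median log2 difference was -0.46 over the tested members and -1.80 over H2A, beside 0.02 over all genes. Of the 11 calls, 2 (Hist1h2ah and Hist1h2ap) stood without NSC_CiPSC line 3, and 6 without either IEC_CiPSC line, with lines left out 1 at a time.

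In the IEC_CiPSC lines, 9 members were called lower than in ESC (1.73% of all tested genes) and 1, Hist1h2ag, was higher (1.63%), and all 10 were H2A. In either direction 3.36% of all genes were called. The median was -0.54 over the tested members and -1.18 over H2A, beside 0.00 over all genes. Without IEC_CiPSC line 10 or line 13, 4 of the 10 calls stood, namely Hist1h2ab, Hist1h2af, Hist1h2ah and Hist1h2aj. The call of Hist1h2ag was also lost without NSC_CiPSC line 2 or 3 and with no filter on low values. Both comparisons share the single ESC library, so the calls of one are not independent of the other.

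Hist1h2af had the largest difference of the IEC_CiPSC lines. It was 2.29 FPKM in NSC, 12.7, 16.3 and 15.7 in the NSC_CiPSC lines, 1.39 in IEC, 3.55 and 5.54 in the IEC_CiPSC lines and 162 in ESC. The ESC value, about 304 fragments with a deposited 95% interval of 144 to 181, lay far above every line, and every line lay above both source cells. The log2 difference from ESC was -3.37 (SE 0.273, adjusted p = 0.0145 by limma) in the NSC_CiPSC and -4.91 (SE 0.289, adjusted p = 0.00707) in the IEC_CiPSC lines. Hist1h2aj was 3.86 FPKM in NSC, 10.5, 12.7 and 12.4 in the NSC_CiPSC lines, 2.41 in IEC, 5.84 and 4.41 in the IEC_CiPSC lines and 134 in ESC. It had the same order of groups and differed from ESC by -3.39 (SE 0.198, limma adjusted p = 0.00668) and -4.47 (SE 0.211, limma adjusted p = 0.00402). This gene is an annotated pseudogene that holds the second of the 49-base forms.

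Other copies with that form had the same order. Hist1h2ah was 2.05 FPKM in NSC, 9.08, 11.8 and 11.0 in the NSC_CiPSC lines, 1.61 in IEC, 4.49 and 4.56 in the IEC_CiPSC lines and 113 in ESC. Hist1h2ad was 2.57 FPKM in NSC, 9.07, 12.7 and 11.0 in the NSC_CiPSC lines, 1.99 in IEC, 4.01 and 4.63 in the IEC_CiPSC lines and 111 in ESC. Hist1h2an was 1.22 FPKM in NSC, 7.16, 11.0 and 8.06 in the NSC_CiPSC lines, 0.775 in IEC, 3.79 and 2.85 in the IEC_CiPSC lines and 93.3 in ESC. In each of these 5 genes the intestinal lines, the neural lines and ESC formed 3 separate ranges, in that order. The limma differences of Hist1h2ah, Hist1h2ad and Hist1h2an from ESC were -3.31, -3.25 and -3.29 in the NSC_CiPSC lines and -4.37, -4.40 and -4.46 in the IEC_CiPSC lines.

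The copies with a cytosine at position 150 differed less or the other way. Hist1h2ap differed from ESC by -1.80 (SE 0.0484, limma adjusted p = 0.000678) in the NSC_CiPSC and by -1.04 (SE 0.0514, limma adjusted p = 0.00436) in the IEC_CiPSC lines. Hist1h2ag was 26.2 FPKM in NSC, 24.3, 34.1 and 28.8 in the NSC_CiPSC lines, 8.34 in IEC, 45.4 and 41.6 in the IEC_CiPSC lines and 14.3 in ESC. Every line was above ESC, by 1.54 on the log2 scale in the IEC_CiPSC lines (SE 0.216, limma adjusted p = 0.0439) and by 0.96 in the NSC_CiPSC lines (SE 0.204, limma adjusted p = 0.0961). The level in ESC over the mean of the 5 lines was 0.412 to 2.74 for the 4 cytosine copies, 4.22 to 15.1 for the 8 copies of the second form and 2.24 for Hist1h2ak.

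Summed over the copies, guanine at position 150 made up 52.5% of the FPKM of these 13 genes in ESC (701 against 634 FPKM). The position was picked by the level in ESC relative to the lines, so a share that differs between them was favoured by the choice. The share was 23.3%, 25.7% and 24.9% in the NSC_CiPSC lines and 8.13% and 8.11% in the IEC_CiPSC lines. It was 7.60% in NSC and 11.7% in IEC. The 3 neural lines therefore lay between ESC and the 2 intestinal lines, which were near both source cells. These copies share reads, and the mm10 reference used to assign them is a C57BL/6J genome, a strain named in the GOFGFP labels and not in that of ESC. The part of the strain in these shares was not tested. The effective length implied by the deposited FPKM and intervals also differed between copies, with 192 to 199.6 bases for Hist1h2af and 319.8 to 327 for Hist1h2ap over the libraries, so levels of 2 copies are compared less surely than 1 copy across libraries.

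**Figure D3:**
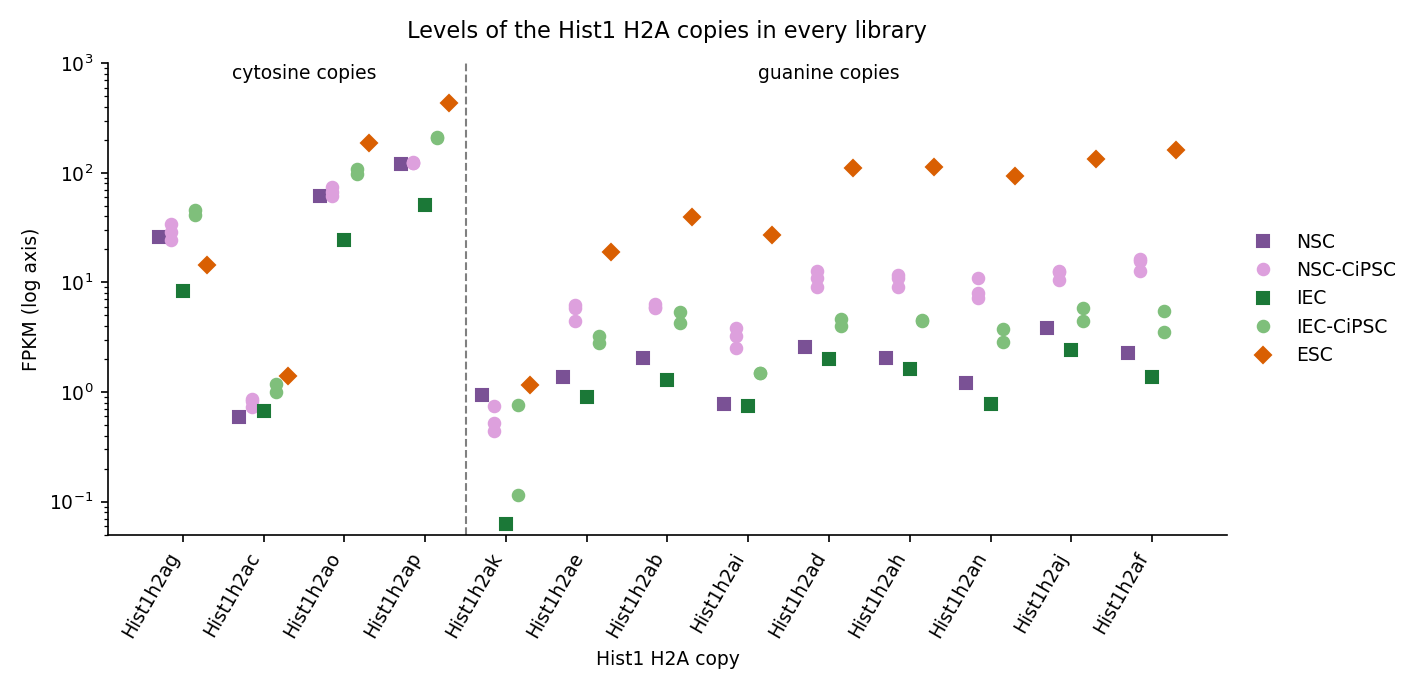
FPKM (log axis) of 13 Hist1 H2A genes in the 8 libraries, coloured by group, with the 4 copies that hold cytosine at coding position 150 left of the dashed line and the 9 with guanine right of it. The ESC points stand at 19.0 to 162 FPKM in the 8 copies of the second form, above all lines, and the ESC point of Hist1h2ag at 14.3 FPKM lies below all lines.

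H2A and H2B genes often lie head to head with a shared promoter region, which lets the neighbours be compared. There were 13 such pairs with starts 176 to 306 bases apart (500 allowed). In 9 pairs the H2A gene was called against ESC in at least 1 comparison, beside 2.81% and 3.36% of all tested genes in the 2 comparisons. In 8 of these the lines were lower, and in the pair of Hist1h2ag they were higher. The H2B gene called was Hist1h2ba, which reached 1 FPKM in ESC only. Hist1h2ad was 111 FPKM in ESC and 4.01 to 12.7 in the lines, 13.4 times their mean, while its neighbour Hist1h2bf was 1.30 in ESC and 0.428 to 1.12 in the lines, 1.44 times. Hist1h2aj was 14.6 times the mean of the lines in ESC and its neighbour Hist1h2bm 0.296 times. Hist1h2ap and its neighbour Hist1h2br were closer to each other, at 2.74 and 3.32 times. Hist1h2br was 2.14 FPKM in ESC and 0.435 to 1.24 in the lines. Hist1h2bm was 0.594 FPKM in ESC and 0.701 to 3.73 in the lines. Both are low levels at which few fragments count.

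**Figure D4:**
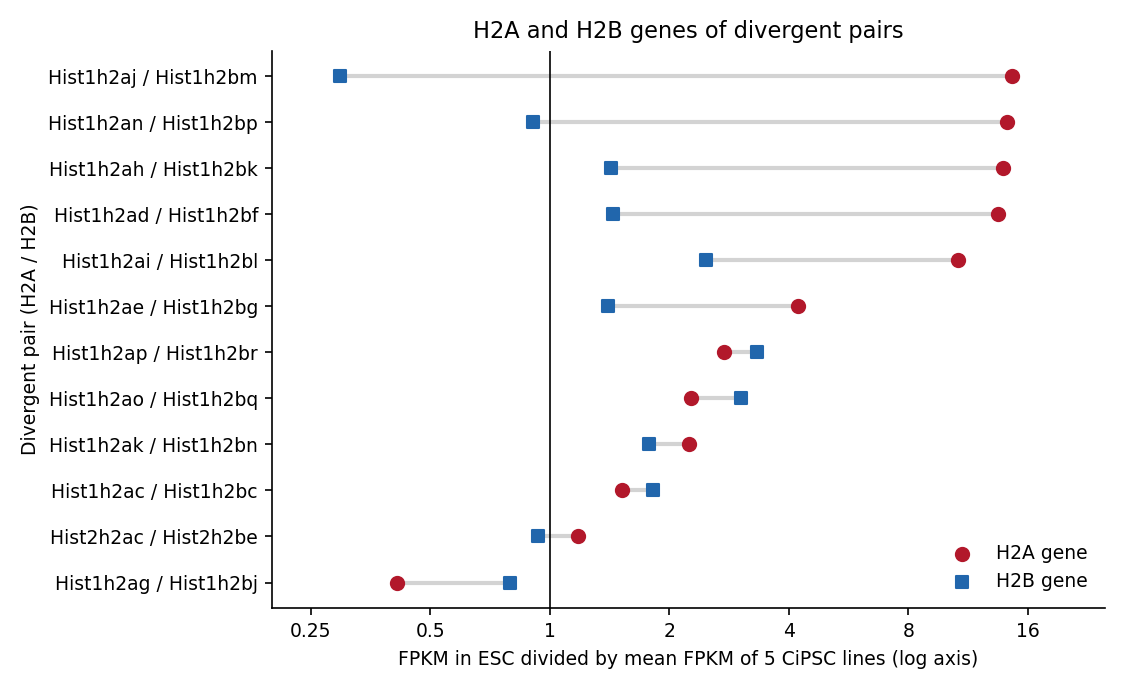
Level in ESC divided by the mean of the 5 CiPSC lines for the H2A gene (red dots) and the H2B gene (blue squares) of 12 head-to-head pairs; the pair of Hist1h2aa, listed at 0 in every library, is left out. The H2A dots reach 14.6 and the squares stay at or below 3.32.

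The order of the levels was also counted without the tests. ESC lay above all 5 lines in 31 of the 57 tested members (20.0% of all tested genes did) and below all 5 in 2, Hist1h2ag and Hist1h2bm (20.5%). Hist1h2bm was at a low level, 0.594 FPKM in ESC. Of the 31, 3 reached 1 FPKM in ESC only, and without them the count was 28 of 54. By class, ESC was above every line in 14 of 17 H2A, 9 of 17 H2B, 2 of 10 H3, 5 of 11 H4 and 1 of 2 H1 genes. The H3 share equalled the background.

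Between the 2 kinds of lines, 4 members were lower in the IEC_CiPSC than in the NSC_CiPSC lines (1.56% of all tested genes) and 0 higher (2.76%). In either direction 4.32% of all genes were called. At an unadjusted p under 0.05, 18 of the 57 tested members differed, beside 4894 of all 17011 tested genes. The 4 called members were Hist1h2af (-1.54 on the log2 scale, SE 0.216, limma adjusted p = 0.0319), Hist1h2ad (-1.16), Hist1h2aj (-1.08) and Hist1h2ah (-1.06), all copies of the second 49-base form. In each the 3 neural lines lay above the 2 intestinal lines, an order that picking called genes favoured. None of the 4 was called with no filter on low values or without IEC_CiPSC line 10 or 13 or NSC_CiPSC line 2 or 3. Hist1h2ap and Hist1h2ao went the other way, by 0.75 (SE 0.0383, limma adjusted p = 0.00579) and 0.61 (SE 0.0988, limma adjusted p = 0.0411), under the 2-fold limit. Hist1h2ba also passed the p threshold in that direction, by 0.49 at levels under 0.5 FPKM.

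In the neural route, 12 of the 57 tested members rose from NSC to the NSC_CiPSC lines, where 18.3% of all tested genes rose, and 4 fell, where 20.7% did (39.0% in either direction). The count of rises was near the background and the count of falls below it. The median log2 difference was 0.73 over the tested members and 0.03 over all genes. The largest rises were Hist1h2af, by 2.26 (SE 0.273, limma adjusted p = 0.00399), Hist1h2an, by 2.12, Hist1h2bj, by 1.95, and Hist1h2ah, by 1.92. Hist1h2bj, an H2B gene, was 0.151 FPKM in NSC and 2.20, 4.83 and 3.76 in the lines. Besides these, Hist1h2ad, Hist1h2ae, Hist1h2aj, Hist1h2ai, Hist1h2ab, Hist1h2bl, Hist1h3a and Hist1h4d rose by 1.18 to 1.73. Hist1h3a reached 1 FPKM in the NSC_CiPSC lines only, so the filter favoured its rise. Hist1h2bj, Hist1h2bl and Hist1h3a lost the call in at least 1 alternative, and 13 of the 16 calls kept it in all. With a pseudocount of 0.1, the number that rose was 19.

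The H2A sum of the lines was 1.17 times that of NSC, and its leading members Hist1h2ap and Hist1h2ao differed by 0.05 and 0.11 on the log2 scale, neither called. Scaling each library to the sum outside the mitochondrial genome turned the log2 ratio of the H2A sums from 0.22 to -0.06 and that of all classes from 0.27 to -0.01. The mitochondrial share was highest in NSC, at 11.6%. The rises of single copies were not refitted under that scaling.

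The 4 members that fell were all outside Hist1. Hist2h2aa1 was 10.5 FPKM in NSC and 1.33, 1.32 and 1.41 in the lines, a log2 difference of -2.29 (SE 0.109, limma adjusted p = 0.000403). Its identical copy Hist2h2aa2 was 9.61 FPKM in NSC and 1.49, 1.15 and 1.35 in the lines (-2.19). Hist3h2a was 8.74 FPKM in NSC and 0.730, 1.28 and 1.15 in the lines (-2.26). Hist3h2ba, the H2B gene of the same cluster on chromosome 11, was 15.6 FPKM in NSC and 1.89, 3.39 and 2.31 in the lines (-2.25). In all 4 the NSC value lay above every line, an order that picking called falls favoured.

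In the intestinal route, 8 members rose from IEC to the IEC_CiPSC lines (19.1% of all tested genes did) and 7 fell (26.2%; 45.3% in either direction), both below the background. The median was 0.62 over the tested members and -0.03 over all genes. The largest rises were those of 3 of the 4 cytosine copies: Hist1h2ag by 2.25 (SE 0.216, limma adjusted p = 0.00178), Hist1h2ao by 2.02 (SE 0.133, limma adjusted p = 0.000596) and Hist1h2ap by 2.02 (SE 0.0514, limma adjusted p = 3.75e-05). The other cytosine copy, Hist1h2ac, was 0.677 FPKM in IEC and 1.17 and 1.01 in the lines and was not called. Hist1h2ab followed, at 1.28 FPKM in IEC and 5.34 and 4.24 in the lines (1.34, SE 0.170, limma adjusted p = 0.004). Hist1h2an, Hist1h2af, Hist1h2ah and Hist1h2ae rose by 1.07 to 1.27. With a pseudocount of 0.1, 17 rose.

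Hist1h1c, a linker histone, fell most. It was 57.3 FPKM in IEC and 1.66 and 2.35 in the lines, a log2 difference of -4.29 (SE 0.591, limma adjusted p = 0.00507). In NSC it was 17.3 FPKM and in the NSC_CiPSC lines 10.6, 4.20 and 4.29, a difference of -1.42 that was not called (SE 0.557, limma adjusted p = 0.0964), and in ESC 5.77. Hist1h2al was 21.8 FPKM in IEC (about 38.7 fragments, deposited 95% interval 14.8 to 28.8) and 3.54 and 0.571 in the lines, a difference of -3.09 (SE 0.773, limma adjusted p = 0.0283). M21 calls it a processed pseudogene. It was listed at 0 in NSC and in NSC_CiPSC lines 1 and 2, at 0.760 FPKM in line 3 and at 5.04 FPKM in ESC.

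Hist2h2aa2 was 9.21 FPKM in IEC and 0.951 and 1.01 in the lines (-2.37), and Hist2h2aa1 was 10.8 in IEC and 1.25 and 1.41 in the lines (-2.34). Hist3h2a was 11.7 FPKM in IEC and 2.03 and 2.41 in the lines (-1.98). Hist1h2bc, the H2B gene with the highest mean level, was 47.4 FPKM in IEC and 12.8 and 10.6 in the lines (-1.93, SE 0.236, limma adjusted p = 0.00357). Hist1h4h was 4.31 FPKM in IEC and 0.493 and 1.25 in the lines (-1.53). These genes were picked as called falls, so an order with IEC above its lines was favoured. IEC lay above its lines in all 7, and 10 of the 15 calls of this route held in every alternative. The 5 that did not were Hist1h2ae, Hist1h2af, Hist1h2al, Hist1h2an and Hist1h4h. IEC is the library whose markers name other tissues, and the part of these in the falls was not tested.

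Both source cells lay above all 5 lines in 6 tested members (26.6% of all tested genes did): Hist1h1c, Hist2h2aa1, Hist2h2aa2, Hist3h2a, Hist1h2bc and Hist2h2be. They lay below all 5 in 26 (27.7%), among them 10 H2A, 8 of 10 H3, 4 H2B, 3 H4 and 1 H1 gene. Of the cluster sums, Hist2 was 23.0 FPKM in NSC and 26.1 in IEC, against 4.64 to 6.96 in the lines and 6.50 in ESC. Hist3 was 24.3 FPKM in NSC and 12.8 in IEC, against 2.62 to 4.67 in the lines and 3.99 in ESC.

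**Figure D5:**
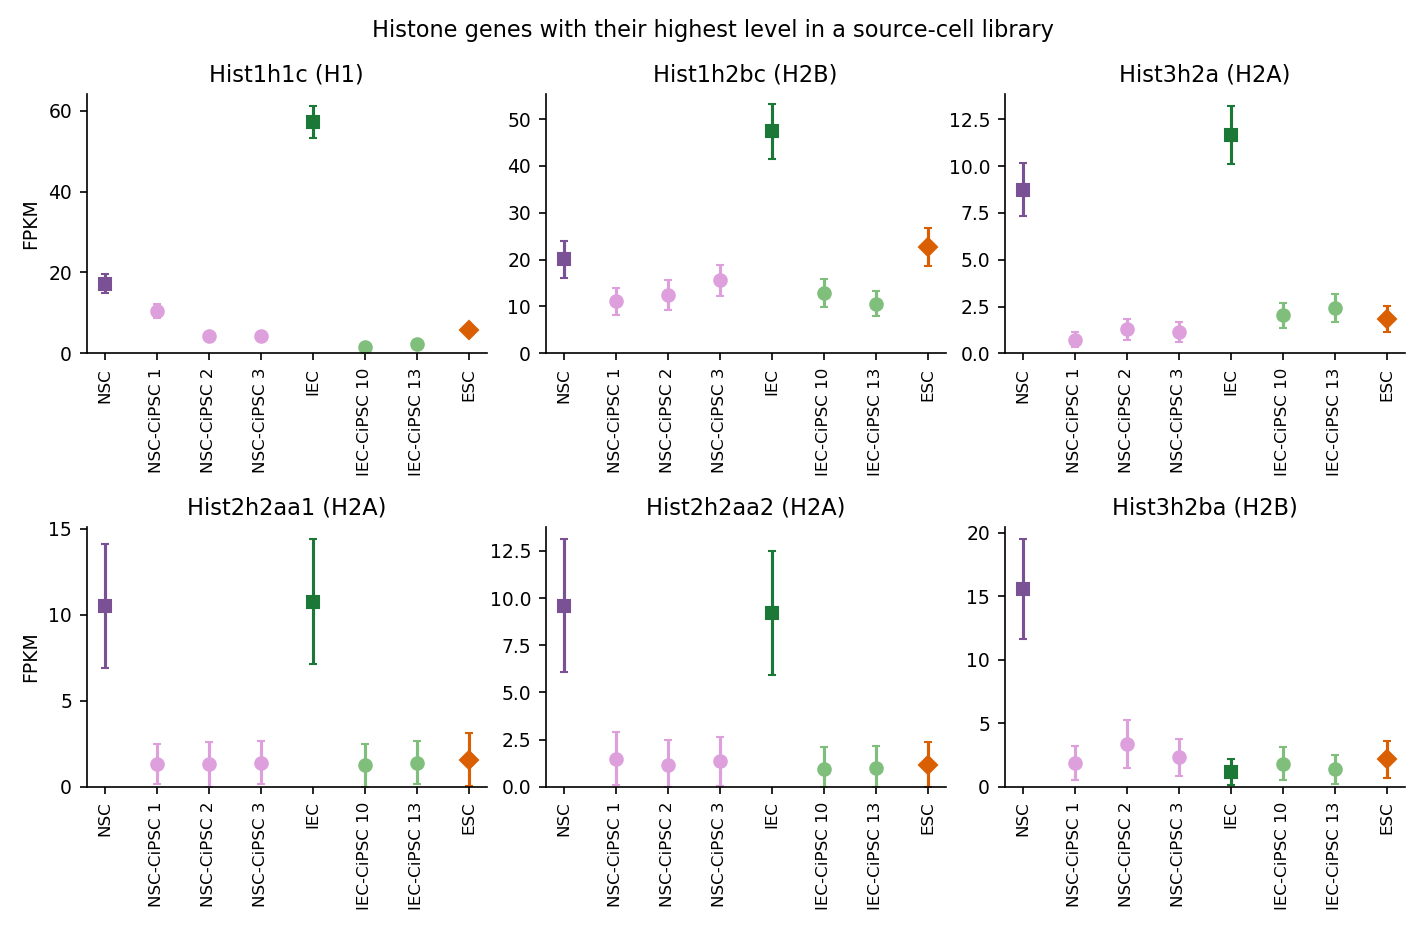
FPKM of Hist1h1c, Hist1h2bc, Hist3h2a, Hist2h2aa1, Hist2h2aa2 and Hist3h2ba in each library, 1 point a library, with the deposited 95% intervals of the authors' software as bars. Hist1h1c and Hist1h2bc are highest in IEC, at 57.3 and 47.4 FPKM, and Hist3h2ba in NSC, at 15.6 FPKM.

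The difference between the routes was tested directly as the neural less the intestinal change. It was called for 5 members (30.5% of all tested genes were). Hist3h2ba fell by 2.25 in the neural route and differed by 0.27 in the intestinal route, a difference of -2.52 (SE 0.417, limma adjusted p = 0.0142). IEC held 1.14 FPKM of it, below every line (1.37 to 3.39). For Hist1h2ag, Hist1h2ap and Hist1h2ao the neural change was 0.13, 0.05 and 0.11 and the intestinal change 2.25, 2.02 and 2.02. Hist1h2bc changed by -0.60 and -1.93, a difference of 1.33 (SE 0.325, limma adjusted p = 0.0397). The calls of Hist1h2bc and Hist3h2ba were lost in some alternatives and the other 3 in none.

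NSC and IEC are 1 library each, so they were compared by size alone. Of the tested members, 4 were at least 2-fold higher in NSC (15.5% of all tested genes) and 5 in IEC (20.5%). On the log2 scale the differences of NSC less IEC were 2.95 for Hist3h2ba, 1.54 for Hist1h2ag, 1.30 for Hist1h2ao and 1.22 for Hist1h2ap. In IEC the higher genes were Hist1h2al (-4.51), Hist1h1c (-1.67), Hist2h2bb (-1.44), Hist1h4h (-1.30) and Hist1h2bc (-1.20).

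Besides Hist1h1c and Hist1h2bc, the leading members of the other classes were at lower levels. Hist1h1a, the second H1 gene that was tested, was listed at 0 in NSC and IEC, at 1.63, 0.800 and 1.77 FPKM in the NSC_CiPSC lines, at 0.698 and 1.75 in the IEC_CiPSC lines and at 2.56 in ESC. Hist1h1e and Hist1h1b, next in level, stayed below 1 FPKM in every library, at most 0.698 and 0.738. Among H4 genes, Hist1h4i led, with 8.52 FPKM in NSC, 17.1, 24.3 and 18.4 in the NSC_CiPSC lines, 8.97 in IEC, 7.03 and 13.1 in the IEC_CiPSC lines and 14.8 in ESC. It was not called in any comparison (limma adjusted p = 0.0757 in the neural route). Hist1h4k was 1.00 FPKM in NSC, 1.95, 1.19 and 4.75 in the NSC_CiPSC lines, 1.98 in IEC, 4.02 and 3.32 in the IEC_CiPSC lines and 8.55 in ESC. Hist1h4d was 0.561 FPKM in NSC, 2.70, 3.55 and 4.18 in the NSC_CiPSC lines, 0.517 in IEC, 1.54 and 2.09 in the IEC_CiPSC lines and 5.53 in ESC. Its rise of 1.51 in the neural route was called (SE 0.245, limma adjusted p = 0.00919). Hist1h4h, named above for its fall in the intestinal route, was 1.15 FPKM in NSC, 1.11, 2.69 and 2.36 in the NSC_CiPSC lines and 2.66 in ESC.

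Among H3 genes, Hist1h3c was 0.767 FPKM in NSC, 1.73, 6.73 and 4.91 in the NSC_CiPSC lines, 0.289 in IEC, 2.74 and 2.16 in the IEC_CiPSC lines and 3.44 in ESC. Hist1h3h was 0.153 FPKM in NSC, 1.37, 5.11 and 3.54 in the NSC_CiPSC lines, 0.297 in IEC, 2.25 and 1.68 in the IEC_CiPSC lines and 3.16 in ESC. In these and in Hist1h3i (0.530 in NSC, 0.187 in IEC, 1.21 to 2.96 FPKM in the lines), line 1 was the lowest of the neural lines. Hist1h3g was 0.956 FPKM in NSC, 0.331 in IEC, 0.591 to 2.64 in the lines and 5.07 in ESC, and the lines overlapped NSC. The called H3 gene was Hist1h3a, at 0.0524 FPKM in NSC and 1.75, 2.50 and 1.56 in the NSC_CiPSC lines (1.47, SE 0.209, limma adjusted p = 0.00632).

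Of the H2B genes, Hist1h2bk was 0.906 FPKM in NSC, 4.05, 10.4 and 2.86 in the NSC_CiPSC lines, 2.27 in IEC, 3.38 and 3.55 in the IEC_CiPSC lines and 6.91 in ESC. Hist1h2bg was 2.54 FPKM in NSC, 1.65, 2.92 and 3.92 in the NSC_CiPSC lines, 5.27 in IEC, 2.77 and 3.17 in the IEC_CiPSC lines and 4.03 in ESC. Neither was called in any comparison.

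The testis-type members were at or near 0. Hist1h1t was listed at 0 except for 0.134 FPKM in both IEC_CiPSC lines, and Hist1h2aa was listed at 0 in all 8. Hist1h2ba was 0.0717 FPKM in NSC, 0.0922, 0 and 0 in the NSC_CiPSC lines, 0.599 in IEC, 0.403 and 0.491 in the IEC_CiPSC lines and 1.23 in ESC. The ESC value rested on about 2.17 fragments, with a deposited 95% interval of 0 to 2.89, and it alone brought the gene into the test, so nothing is read from its call against ESC.

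Of the 69 members, 18 had an M21 transcript over 1000 bases, of which 11 were tested. In the intestinal route Hist1h1c, Hist1h2bc and Hist3h2a were called lower in the lines than in IEC, where 26.2% of all tested genes were. In the neural route Hist3h2a was called lower (20.7% of all tested genes) and Hist1h4d higher (18.3%). None was called against ESC, where 2.81% and 3.36% of all genes were. These counts were near or below the shares of all genes. The summed FPKM of the 18 was 51.3 in NSC, 30.1, 29.6 and 31.1 in the NSC_CiPSC lines, 126 in IEC, 23.9 and 24.6 in the IEC_CiPSC lines and 48.0 in ESC. Without Hist1h1c, Hist1h2bc and Hist3h2a it was 5.23 in NSC, 9.49 in IEC, 7.39 to 11.8 in the lines and 17.7 in ESC. These 3 are the members called lower than in IEC, so lower sums in the source cells were favoured by that choice. Hist2h2be, another of the 18, also lay above all 5 lines in both source cells. Whether reads came from stem-loop or polyadenylated forms cannot be told from gene-level values.

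The genes that make and handle histone mRNA were counted from lists of known pathway genes. Of 22 tested genes for histone gene transcription and 3-prime processing, 7 rose and 0 fell in the neural and 11 rose and 1 fell in the intestinal route (medians 0.61 and 1.02, beside 0.03 and -0.03 over all genes). Over all tested genes, 18.3% rose and 20.7% fell in the neural and 19.1% rose and 26.2% fell in the intestinal route. Against ESC, 0 were called for the NSC_CiPSC and 1 (Cstf2, higher) for the IEC_CiPSC lines, beside 2.81% and 3.36% of all genes. Slbp, which binds the stem-loop, was 35.0 FPKM in NSC and 90.5 ± 0.598 (SD, n = 3) in its lines, a rise of 1.35 (SE 0.0463, limma adjusted p = 0.000184). It was 24.6 FPKM in IEC and 76.7 ± 0.217 (SD, n = 2) in its lines, a rise of 1.60, and 83.6 in ESC. Ccne1, the cyclin that drives S phase entry and the phosphorylation of Npat, rose by 3.04 and 2.62, and Zfp473, a zinc finger protein of the 3-prime processing complex, by 3.02 and 3.15. Casp8ap2, the FLASH protein that works with Npat, rose by 1.49 and 1.93.

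Of 21 tested histone chaperone genes, with the acetyltransferase Hat1, 10 rose and 0 fell in the neural and 12 rose and 1 fell in the intestinal route, beside the same 18.3%, 20.7%, 19.1% and 26.2% of all genes. None was called against ESC, where 2.81% and 3.36% of all genes were. Hat1, which acetylates new H4, rose by 2.53 and 3.69. Nasp, a chaperone of H3 and H4, rose by 2.34 and 3.13, and Npm1, a nucleolar chaperone, by 2.80 and 2.45. A list drawn up as replication-independent histone genes had 12 tested genes. Whether each of them is independent of replication was not tested. Of these, 1 rose and 1 fell in the neural and 3 rose and 1 fell in the intestinal route, beside the same 18.3%, 20.7%, 19.1% and 26.2% of all genes. H2afz (H2A.Z) rose by 1.48 and 1.86 and the linker gene H1f0 fell by 1.43 and 2.44. H2afx, whose protein marks DNA breaks when phosphorylated, was 109 ± 6.76 FPKM (SD, n = 3) in the NSC_CiPSC lines and 286 in ESC, a difference of -1.39 (SE 0.0843, limma adjusted p = 0.00716). It was the 1 gene of that list called against ESC, where 2.81% and 3.36% of all genes were.

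Of 18 tested S phase genes, 10 rose in the neural and 18 in the intestinal route, with none falling (medians 1.34 and 2.40), where 18.3% and 19.1% of all tested genes rose, and 0 were called against ESC. The largest neural rises were those of Cdc6 (2.16), which loads the replicative helicase, and of the helicase subunits Mcm2 (2.08), Mcm5 (2.05) and Mcm7 (2.00). The largest intestinal rises were those of Rrm2 (3.81), a subunit of the enzyme that makes deoxynucleotides, Mcm5 (3.18), Cdc6 (3.09) and the polymerase subunit Pola1 (2.89). Of 12 mitosis genes, Bub1 (1.502) and Aurka (1.17) rose and Mki67 (-1.05) fell in the neural route. In the intestinal route 11 rose, led by Ccnb1 (3.32), Bub1 (3.09), Aurka (2.96) and Ube2c (2.76). By the direct test, the signed neural less intestinal change was called below 0 in 10 S phase and 12 mitosis genes, where 12.9% of all tested genes were. The median differences of the NSC_CiPSC and IEC_CiPSC lines from ESC were -0.01 and -0.05 for the S phase list. They were -0.46 and -0.54 over all tested members and -1.80 and -1.18 over H2A. Over H2B they were -0.39 and -0.34, over H3 -0.01 and -0.27, over H4 -0.47 and -0.54 and over H1 -0.29 and -0.95. The part of S phase in these levels was not tested.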

How the data were processed

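The authors deposited 1 table per library with FPKM values (fragments scaled to transcript length and mapped depth) of each gene, 95% intervals and a status flag, for which the submitters' processing notes name TopHat, Cufflinks and the build mm10. Versions, the annotation, strand handling and poly(A) selection are not given in the sources used here. Cufflinks shares reads among near-identical copies, so a copy's FPKM is an estimate. Per the labels' protocols, total RNA was taken with a Qiagen kit and libraries were made with an NEBNext kit.

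From the deposited FPKM, log2(FPKM + 1) was tested with limma 3.58.1 (R 4.3.3, trended variance) over all 5 groups, for 17011 genes with at least 1 FPKM in at least 1 library and no failed or low-data status. There were 3 residual degrees of freedom. Benjamini-Hochberg adjustment ran over all of these genes, and a call needed adjusted p under 0.05 and a fold of at least 2. Fold changes on this scale understate those of low genes. The code was tested on simulated data. Class and cluster sums, sequences (Python 3.11.15, pandas 2.3.3, NumPy 2.4.6, matplotlib 3.10.9; GENCODE M21 and RefSeq GRCm38.p6) and NSC against IEC are descriptions. All 69 symbols matched M21, 59 with the same gene identifier.

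The members, gene lists and markers were chosen with earlier results of these data known. Named were the 4 highest members of each class, up to 4 largest called rises and falls a comparison, testis-type members, members with transcripts over 1000 bases and the largest called changes of each list. Further genes were named after their values were seen. Alternatives were a pseudocount of 0.1, no filter or a filter of 5 FPKM, quantile and upper quartile scaling, no variance trend, all status flags, scaling outside the mitochondrial genome, sums without their highest member, and leaving out each line.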

Additional observations from a re-analysis of the deposited data

Results flagged for a closer look

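Of the histone genes, 5 changed differently in the neural and the intestinal route by the direct test of that difference (limma, adjusted p over all tested genes). The difference, neural less intestinal change on the log2 scale, was -2.52 for Hist3h2ba (limma adjusted p = 0.0142), -2.12 for Hist1h2ag (adjusted p = 0.00903), -1.97 for Hist1h2ap (adjusted p = 0.000145), -1.91 for Hist1h2ao (adjusted p = 0.003) and 1.33 for Hist1h2bc (adjusted p = 0.0397). Each source cell is 1 library in these tests. Over all tested genes, 30.5% were called in this comparison.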

How the results depend on the processing

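The sign was checked for 44 of the calls, and none turned under the alternatives run. The report gives part of the calls that were lost. In the NSC_CiPSC lines against ESC, Hist1h2ae was also lost with a pseudocount of 0.1 and with no filter. It was lost there without NSC_CiPSC line 1 or 2 as well, and Hist1h2af without line 2. In the IEC_CiPSC lines against ESC, Hist1h2ae was lost without NSC_CiPSC line 2, and Hist1h2ai and Hist1h2an without line 3. Counts that moved by over 1.5 times were as follows. A larger neural change here means a neural less intestinal difference called above 0 on the signed log2 scale. The 1 such member of the report was Hist1h2bc, whose neural change (-0.60) was a weaker fall than the intestinal one (-1.93). With a pseudocount of 0.1, 19 members rose in the neural route (12 in the report) and 17 in the intestinal route (8). At that setting 1 was higher in the IEC_CiPSC than in the NSC_CiPSC lines (0), and 2 had a larger neural change (1). With no filter on low values, 0 were higher in the IEC_CiPSC lines than in ESC (1), 0 lower in the IEC_CiPSC than in the NSC_CiPSC lines (4) and 0 had a larger neural change. The last count was 3 with a filter of 5 FPKM and 2 with quantile normalization. Leaving out 1 line at a time gave 2 to 10 members lower in the NSC_CiPSC lines than in ESC, 4 to 10 lower and 0 to 1 higher in the IEC_CiPSC lines than in ESC, 0 to 4 lower in the IEC_CiPSC than in the NSC_CiPSC lines, and 0 to 4 with a larger neural change. The cause of these shifts was not tested.

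The log2 ratios of summed FPKM have no test. Upper quartile scaling moved those of IEC_CiPSC to IEC from 1.41 to 1.48 (H2A), from -1.75 to -1.68 (Hist3) and from 0.65 to 0.72 (all classes). Scaling to the sum outside the mitochondrial genome moved NSC_CiPSC to NSC from 0.22 to -0.060 (H2A) and from 0.27 to -0.012 (all classes). It moved IEC_CiPSC to IEC to 1.26 (H2A), 1.35 (H3), -2.20 (Hist2), -1.89 (Hist3) and 0.51 (all classes). Against ESC it gave -2.31 for H2A of the NSC_CiPSC lines, and -1.84 (H2A), -0.14 (Hist3) and -1.73 (all classes) for the IEC_CiPSC lines.

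Without the member with the highest mean, NSC_CiPSC to NSC became 4.83 (H1), 0.36 (H2A), 0.14 (H2B) and -1.44 (Hist2). IEC_CiPSC to IEC became 1.51 (H1), 0.92 (H2A), -0.069 (H2B), 1.28 (H3), 0.82 (H4), -1.63 (Hist2), 0.48 (Hist3) and 0.079 (all classes). Both of these H1 ratios divide by source-cell sums near 0. IEC_CiPSC to ESC became -0.80 (H1), -2.29 (H2A), 0.011 (Hist2), -0.43 (Hist3) and -1.99 (all classes), and NSC_CiPSC to ESC -2.39 (H2A), -0.88 (H4) and 0.23 (Hist3). IEC_CiPSC to NSC_CiPSC became -0.075 (H1), 0.099 (H2A), -0.13 (H4), -0.67 (Hist3) and -0.097 (all classes). Leaving out 1 line at a time, NSC_CiPSC to ESC ranged from -0.60 to 0.070 (H1), -0.43 to 0.18 (H3), -0.25 to 0.030 (Hist2) and -0.39 to 0.027 (Hist3), and H2B of NSC_CiPSC to NSC from -0.31 to 0.029. Hist2 of IEC_CiPSC ranged from -0.14 to 0.039 against ESC and from -0.079 to 0.20 against the NSC_CiPSC lines, and Hist3 against the latter from -0.092 to 0.33.

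Depth limits the members near or below 1 FPKM, among them most tested H3 genes in NSC and IEC. No paired analysis was possible because the line numbers are not shared between the groups compared and NSC, IEC and ESC are 1 library each.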
